A study of Mus musculus with 22 samples.

Results

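Serpina3 genes encode secreted or intracellular inhibitors of serine proteases that belong to clade A of the serpin superfamily. A serpin offers a reactive loop as bait, and the protease that cuts it is trapped in an inactive covalent complex. In the mouse the genes lie side by side as a cluster that arose by repeated duplication, and they share ancestry with human SERPINA3, alpha-1-antichymotrypsin. Serpina3n is known as an acute phase gene that responds to IL-6 family cytokines through STAT3 and to glucocorticoids, and its protein inhibits leukocyte proteases and granzyme B. In cartilage its human relative is known from differentiating chondrocytes.

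The genes described are the 6 whose symbols are exactly Serpina3c, Serpina3f, Serpina3g, Serpina3i, Serpina3m and Serpina3n, of 34866 genes in the culture tables. All 6 had a row in both culture tables, and 4 of the 6 (Serpina3c, Serpina3f, Serpina3g and Serpina3n) had one in the whole-number cartilage table of 23911 genes. They were chosen by symbol as a family, selected on the count values of the culture libraries: the lower level of Serpina3n at day 0 and of Serpina3c at day 3 in Dnmt1-deleted cultures was already known from them. The culture differences between genotypes are therefore given as levels and sizes. Where members are counted past the threshold in those contrasts, the count is a description beside the share of all genes, and it supports nothing about the family. The changes between days use the same libraries and are descriptions too.

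The study measured RNA in 22 mouse libraries in 6 groups and asked what the maintenance DNA methyltransferase Dnmt1 does in cartilage cells. Primary chondrocytes from knee articular cartilage of mice at postnatal day 3 to 5 carried Dnmt1 flox (control) or Prrx1-Cre;Dnmt1 flox/flox (cKO), and were taken untreated (day 0, 3 control and 3 cKO libraries) or after 3 days of the growth factor BMP2 at 100 ng/µl (day 3, 4 and 4 libraries). Cartilage from mice at postnatal day 5, digested with collagenase, came as 4 flox (control) and 4 cKO libraries, with replicates 1 and 2 male and 3 and 4 female. Prrx1-Cre is active in limb bud mesenchyme, so the deletion reaches other limb lineages as well as chondrocytes. The floxed allele was present in every group. Whether replicates came from separate animals or cultures is not stated beyond the word biological in the culture titles, so the p-values measure the spread between these libraries.

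Library totals were 41749546 to 51741669 counts at day 0. They were 14434320 to 18918905 counts at day 3, and the cartilage libraries held 1100198 to 1888896. Levels are given as CPM, the usual depth-scaled count of a gene, after TMM scaling, over the 14 culture libraries together or over the 8 cartilage libraries. A gene with at most 3 counts in a library is called at the floor. That count was worth 0.0582 to 0.0721 CPM at day 0 and 0.148 to 0.206 CPM at day 3, and in the shallower cartilage libraries 1.54 to 2.75 CPM. These values cover counting error only. Dnmt1 itself was at 153 to 166 CPM in control and 26.8 to 32.8 CPM in cKO cultures at day 0, at 63.3 to 81.5 and 10.9 to 35.6 CPM at day 3, and at 34.5 to 48.6 and 11.8 to 14.3 CPM in cartilage, so no cKO library reached a control one in any setting. All 17 chondrocyte markers were above the floor in every group. The cKO library of replicate 4 at day 3 stood apart, with the markers summing to 1778 CPM against 14030 to 19590 CPM in the other 3 cKO libraries of that day. Serpina3n differences and the Serpina3c share that include this library are also given without it.

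On GRCm38, in the GENCODE M21 annotation, 14 Serpina3 genes and pseudogenes lay on chromosome 12 between 104112724 and 104414329, a stretch of 301.6 kb. Serpina3n was the last of them, at chr12:104406729-104414329 on the plus strand. Serpina3c lay near the other end, at chr12:104146382-104153870 on the minus strand. Between them were Serpina3f (chr12:104214544-104221129), Serpina3g (chr12:104236245-104241939), Serpina3i (chr12:104263122-104269372) and Serpina3m (chr12:104338486-104394257), all on the plus strand. The annotated Serpina3m starts at the same base as Serpina3k and spans it.

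**Figure D1:**
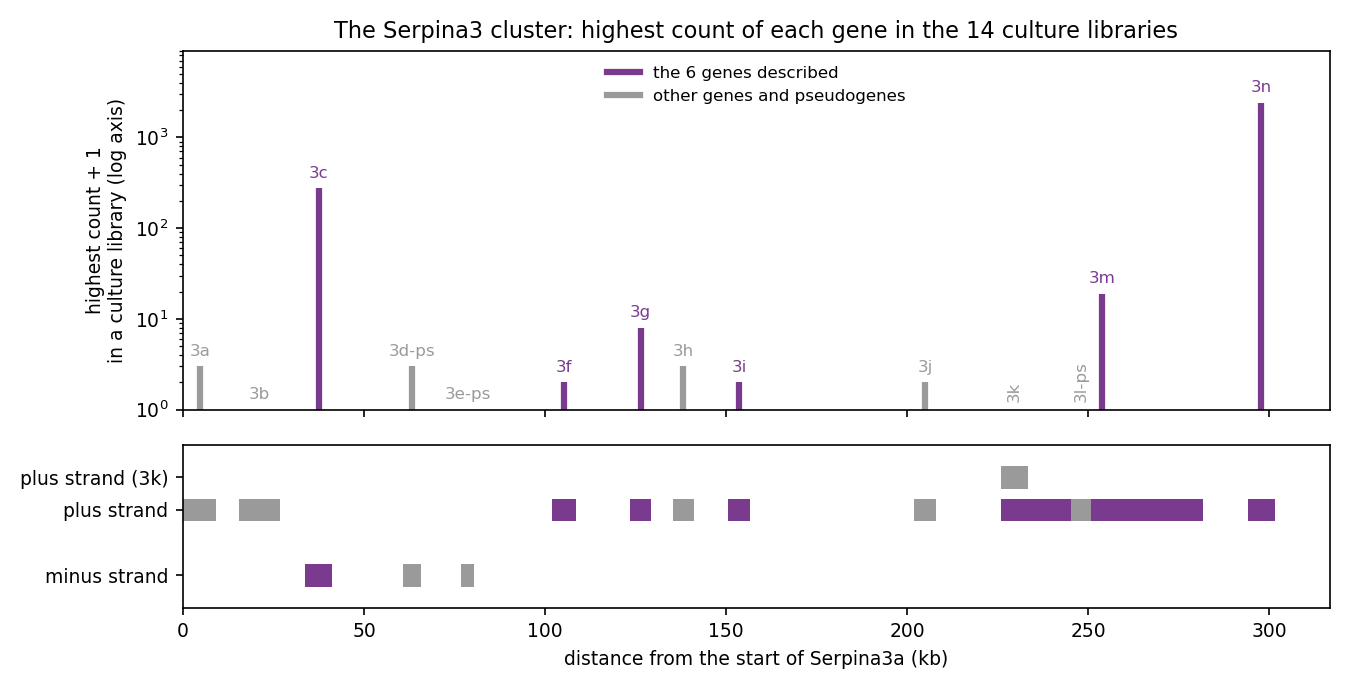
The Serpina3 cluster. The lower panel draws each gene by strand along the distance from the start of Serpina3a in kb, with Serpina3k raised because Serpina3m covers it; the upper panel gives, on a log axis, the highest count plus 1 that each gene reached in any of the 14 culture libraries. Serpina3n (2404 counts) and Serpina3c (275 counts) tower over their neighbours, and none of the 8 grey genes passed 3 counts.

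Within this cluster the RNA came almost wholly from Serpina3n and Serpina3c. Serpina3n had counts above the floor in all 14 culture and all 8 cartilage libraries, and Serpina3c in all 14 culture libraries. Serpina3m was above the floor in 4 culture libraries, with at most 18 counts, and Serpina3g in 4, with at most 7 counts. Serpina3f and Serpina3i never passed 1 count in a culture library. The other 8 Serpina3 rows, namely Serpina3a, Serpina3b, Serpina3j, Serpina3k and 4 pseudogenes (Serpina3h among them), did not pass 3 counts in any culture library. They had no row in the whole-number cartilage table and were listed at 0 in the estimated one.

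The family members resemble one another closely enough for reads to be misassigned in places. The longest aligned stretch of the Serpina3n and Serpina3c transcripts was 1219 bases at 88.0% identity, and that of Serpina3c and Serpina3m was 1593 bases at 89.4%. Of the 81-base windows in Serpina3n transcripts, the length of a cartilage read, 1.16% occurred in another gene (Serpina3g or the pseudogene Serpina3e-ps). In Serpina3c this held for 1 of 2133 windows, shared with Serpina3m. The shares were higher in Serpina3m (8.49%, with Serpina3k and Serpina3c), Serpina3g (6.60%), Serpina3i (5.09%) and Serpina3f (5.03%), so the low counts of these 4 genes are uncertain in a way that those of Serpina3n and Serpina3c are not.

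The promoters of the pair with most RNA are shown because they are nearly the same sequence although the genes lie at opposite ends of the cluster. The sequences are the 250 bases before the start that RefSeq gives on GRCm38.p6, 5′ to 3′ on the gene's strand. Capitals mark bases that differ from the other promoter in the alignment or have no partner there.
Serpina3n, chr12:104406458-104406707, plus strand: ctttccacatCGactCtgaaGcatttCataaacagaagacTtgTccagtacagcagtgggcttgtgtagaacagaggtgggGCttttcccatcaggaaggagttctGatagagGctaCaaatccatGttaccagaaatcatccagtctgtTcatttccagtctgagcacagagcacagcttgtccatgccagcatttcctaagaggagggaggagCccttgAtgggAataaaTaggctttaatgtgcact
Serpina3c, chr12:104153873-104154122, minus strand: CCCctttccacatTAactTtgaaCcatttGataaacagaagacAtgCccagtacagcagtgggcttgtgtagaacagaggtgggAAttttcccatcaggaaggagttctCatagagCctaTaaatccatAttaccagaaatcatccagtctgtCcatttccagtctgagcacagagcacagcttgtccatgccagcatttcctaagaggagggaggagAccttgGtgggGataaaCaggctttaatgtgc

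Over the full RefSeq windows of 300 bases (250 before and 50 after the start), 275 positions matched between Serpina3n and Serpina3c, with 19 mismatches and 12 gap columns, an identity of 89.9%. Every other pair among the 5 members with a promoter entry was less alike, from 43.4% (Serpina3f and Serpina3g) to 67.7% (Serpina3f and Serpina3i). CG, the dinucleotide that Dnmt1 keeps methylated, was less frequent in these windows than in the median promoter. Serpina3n had 3 CG, Serpina3c 1, Serpina3g 4 and Serpina3i 0, and the windows of the Serpina3f starts had 0 and 1, against a median of 7 over 32851 promoters. DNA methylation was not measured in these files.

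Motifs were searched on both strands of the same windows, as letters only. The STAT pattern TTCNNNGAA was found in the windows of Serpina3f, Serpina3g and Serpina3i, and in 8.30% of all promoters. It was not found in those of Serpina3n and Serpina3c. The C/EBP pattern TTGCNNAA was found in Serpina3f and in 10.8% of all promoters. TATAAA was found in Serpina3c and Serpina3f and in 13.6% of all promoters. The palindromic glucocorticoid response element, the SOX pattern AACAAT and the interferon-stimulated response element were found in none of these windows, and in 0.00913%, 10.7% and 3.44% of all promoters. A missing match says only that these letters were not in this window.

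Serpina3n was the most abundant member per kb of exon in every culture group. In untreated control cultures it reached 24.8 ± 1.12 CPM per kb (SD, n = 3), against 1.48 ± 0.144 for Serpina3c and 0.192 ± 0.0347 for Serpina3m. In untreated cKO cultures the levels were 2.08 ± 0.247 CPM per kb for Serpina3n and 0.114 ± 0.0239 for Serpina3c (n = 3). After BMP2 the control levels were 29.8 ± 14.7 and 5.4 ± 1.58, and the cKO levels 10.3 ± 6.38 and 0.189 ± 0.0984 (n = 4). Serpina3n alone made up 92.3 to 95.4% of the summed CPM of the 6 genes in the day 0 libraries, 74.9 to 87.6% in day 3 control libraries and 83.7 to 98.0% in day 3 cKO libraries.

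Serpina3n, the acute phase member, was lower in cKO than in control cultures at day 0. Its level in the 3 control libraries was 52.5, 48.6 and 52.6 CPM. In the 3 cKO libraries it was 3.75, 4.75 and 4.4 CPM. The groups lay far apart and each was tight, and the log2 difference of cKO from control was -3.57 (SE 0.0808). Among 11785 genes whose mean log2 CPM reached 1, 4 had a lower log2 difference at day 0. This rank restates a difference known when the family was chosen, and nothing is read from it.

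Serpina3c, a related inhibitor of the same clade, was lower in the same libraries by a similar factor. Its level was 3.37, 2.92 and 3.54 CPM in the control libraries and 0.312, 0.23 and 0.213 CPM in the cKO libraries, from 138 to 154 and 10 to 13 counts. The log2 difference was -3.70 (SE 0.200), and the groups did not overlap. Serpina3c made up 5.99% ± 0.315 (SD, n = 3) of the counts of Serpina3c and Serpina3n together in control cultures and 5.64% ± 1.78 (n = 3) in cKO cultures.

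Serpina3m, a close relative of Serpina3c in sequence, had 18, 13 and 14 counts in the control libraries of day 0 and 0 in each cKO library. Its control mean was 0.331 CPM, at least 4.98-fold above the level that 3 counts per library give in the cKO group. These few counts are uncertain because of the windows shared with Serpina3k and Serpina3c. Serpina3k had 0 counts in every culture library. Serpina3f, Serpina3g and Serpina3i had 0 counts in all 6 libraries of day 0, which allows up to 0.0721 CPM in a library. In this contrast 3 of the 6 genes passed the filter on low counts, and all 3 were called lower in cKO at an edgeR adjusted p under 0.05. Serpina3m passed the filter through the control libraries alone, so its direction was fixed by the filter. Serpina3c, with 10 to 13 counts in the cKO libraries, lay near the filter there. Of all 15530 genes tested, 64.5% were called, 33.0% higher and 31.6% lower. The 3 members also did not overlap between the groups, as held in the lower direction for 34.4% of all genes. Because this contrast was known when the family was chosen, nothing is read from these counts.

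**Figure D2:**
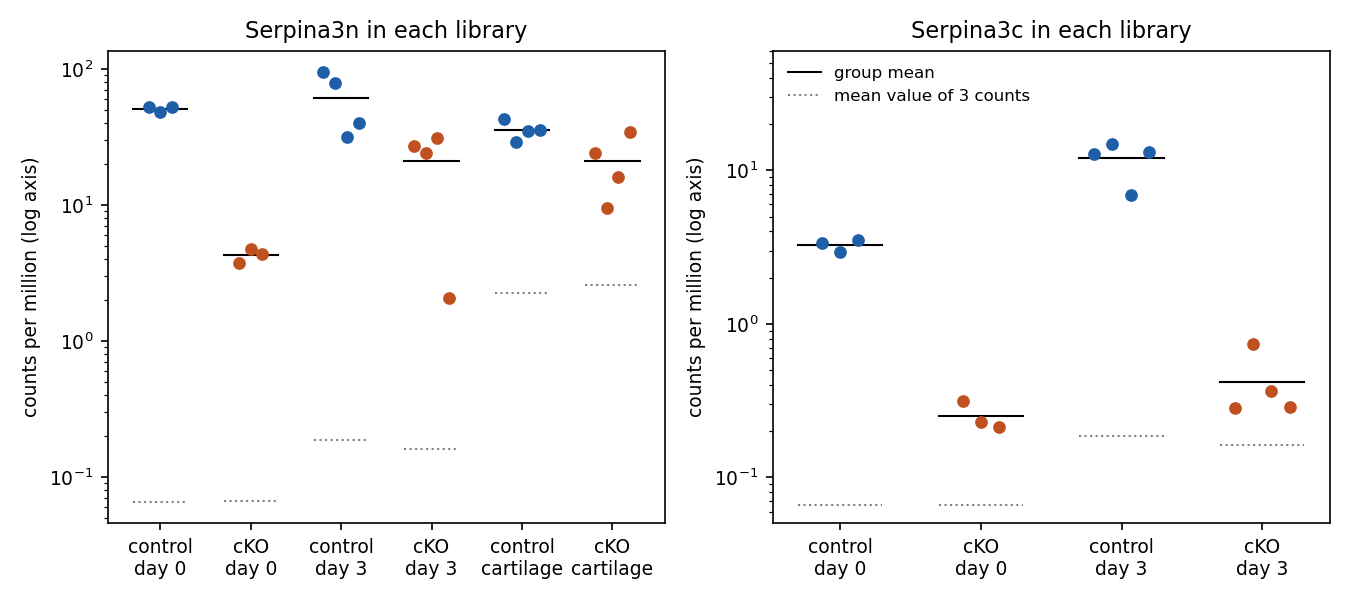
Levels of Serpina3n (left, 22 libraries) and Serpina3c (right, 14 culture libraries) in CPM on a log axis. Each point is a library, in the order of its replicate number within the group; black bars are arithmetic group means and dotted bars the mean level that 3 counts give. Serpina3n was at 3.75 to 4.75 CPM in day 0 cKO cultures against 48.6 to 52.6 CPM in control, and 1 day 3 cKO library lay at 2.08 CPM.

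After 3 days of BMP2 Serpina3n varied widely within each genotype. It was at 95.1, 78.6, 32.0 and 40.2 CPM in control replicates 1 to 4. The cKO values, in the same order, were 27.4, 24.3, 31.5 and 2.08 CPM. The lowest control library (32.0) and the highest cKO library (31.5) almost touched, and cKO replicate 4 lay far below the others of its group. The log2 difference was -1.52 (SE 0.660) and Serpina3n was not called. Without cKO replicate 4, the library with the lowest chondrocyte marker sum, it was -1.14 and the count of called members went from 1 to 2, again as a description.

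Serpina3c was far apart between the genotypes at day 3 too. The 4 control libraries held it at 12.8, 14.9, 6.91 and 13.2 CPM, from 115 to 275 counts. The 4 cKO libraries held it at 0.281, 0.741, 0.365 and 0.288 CPM, from 5 to 15 counts. The log2 difference was -4.78 (SE 0.370), and it lay between -5.20 and -4.63 with each library left out in turn. Among 12394 genes whose mean log2 CPM reached 1, 4 had a lower log2 difference than Serpina3c and 312 a lower one than Serpina3n. Of the 2 members that passed the filter, 1 was called lower. It was Serpina3c, which passed the filter through the control libraries, so its direction was largely fixed by the filter. Of all 13924 genes tested, 48.1% were called, 25.5% higher and 22.6% lower. Both members did not overlap between the groups, as held in the lower direction for 22.7% of all genes. Nothing is read from these counts and ranks either.

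The sparse members lay near the floor after BMP2. Serpina3g, an inhibitor known from activated immune cells and from interferon and NF-kB responses, had 6, 4, 2 and 3 counts in the control libraries and 4, 7, 3 and 1 in the cKO libraries, so the groups overlapped. Serpina3m had 4, 3, 3 and 1 counts in control and 0, 1, 3 and 0 in cKO, at or near the floor throughout. Serpina3f had at most 1 count in a library and Serpina3i 1 count in 1 cKO library. A difference in these 4 genes was not detectable at this depth.

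The postnatal cartilage libraries are separate from the culture libraries in which the differences of the family were known. Serpina3n was at 42.8, 29.0, 34.9 and 36.0 CPM in control replicates 1 to 4 and in cKO replicates 1 to 4 at 24.4, 9.62, 16.1 and 34.5 CPM. Of these, 3 cKO libraries lay below all 4 control libraries, and the fourth, female replicate 4, lay within the control range, so the groups overlapped. The log2 difference was -0.76 (SE 0.274, 95% interval -1.29 to -0.22), with an unadjusted p of 0.0144 and an adjusted p of 0.119 in edgeR's quasi-likelihood test, so Serpina3n was not called. The 1 member tested thus gave 0 calls in edgeR and 0 in DESeq2. Of all 8793 genes tested, 6.19% were called in edgeR, 3.15% higher and 3.04% lower, and 6.4% did not overlap between the groups in the lower direction. The shares of all genes in DESeq2 or at an unadjusted p under 0.05 were not counted.

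The call of Serpina3n in cartilage changed with the libraries and the filter. Without cKO replicate 4 the log2 difference was -1.11 and passed (edgeR adjusted p 0.0430), and without the filter on low counts it was -0.80 and passed (edgeR adjusted p 0.00794). With every other single library left out it lay between -0.91 and -0.52 and did not pass. All control libraries came from pool 1 and all cKO libraries from pool 2, so pool and genotype cannot be told apart.

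By sex, the male cKO libraries (24.4 and 9.62 CPM) both lay below the male controls (42.8 and 29.0 CPM), and the female cKO libraries (16.1 and 34.5 CPM) both lay below the female controls (34.9 and 36.0 CPM), replicate 4 by little. The female log2 difference minus the male one was 0.59 (SE 0.541, edgeR adjusted p 0.994), which did not pass. Of all 9687 genes tested for this difference, 0.0103% passed. The value became -0.09 without cKO replicate 4.

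The other members were too rare in cartilage to test. Serpina3c had 0, 1, 1 and 2 counts in the control libraries and 7, 1, 0 and 4 in the cKO libraries. Serpina3g had 0, 0, 1 and 1 counts in control and 1, 4, 2 and 0 in cKO. Serpina3f had at most 2 counts in a library. The estimated counts of the same libraries listed Serpina3i and Serpina3m at 0 throughout. The separation of Serpina3c between the culture genotypes could not be examined in tissue at this depth, where 3 counts are worth 1.54 to 2.75 CPM.

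The change from day 0 to day 3 asks how the genes responded over the 3 days with BMP2, in each genotype. The table, the BMP2 treatment and the day differ together between these groups and cannot be told apart. The libraries are also those in which the family was already known, so these changes and their calls are a description and support nothing about the family. Serpina3c rose in control cultures, from 2.92 to 3.54 CPM at day 0 to 6.91 to 14.9 CPM at day 3, with no overlap. The log2 change was 1.87 (SE 0.278, edgeR adjusted p 8.99e-05), and it lay between 1.75 and 2.06 with each culture library left out in turn, passing each time. Serpina3n did not pass in control cultures, where its log2 change was 0.26 (SE 0.556, edgeR adjusted p 0.714) and its day 3 libraries lay on both sides of day 0. Of the 6 genes, 2 were tested and 1 was called, higher. Of all 14909 genes tested, 56.9% were called, 28.1% higher and 28.8% lower, and 30.8% did not overlap in the higher direction.

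Serpina3n was called higher at day 3 in cKO cultures. Its log2 change was 2.31 (SE 0.628, edgeR adjusted p 0.00612), from 3.75 to 4.75 CPM at day 0 to 24.3 to 31.5 CPM in 3 of the day 3 libraries, with replicate 4 at 2.08 CPM below all day 0 libraries. It passed with each culture library left out in turn, with log2 changes from 2.03 to 2.69, the highest without cKO replicate 4 of day 3. The 3 higher cKO libraries of day 3 still lay below all control libraries of either day. Serpina3c did not pass in cKO cultures, with a log2 change of 0.76 (SE 0.402, edgeR adjusted p 0.119) and overlapping groups. Of the 2 genes tested 1 was called, higher, and none was higher without overlap. Of all 14909 genes, 62.2% were called, 32.4% higher and 29.8% lower, and 31.5% did not overlap in the higher direction.

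The genotype difference of Serpina3n was thus -3.57 at day 0 and -1.52 at day 3, and that of Serpina3c was -3.70 and -4.78. The change of the log2 difference between the days was 2.05 (SE 0.819) for Serpina3n and -1.11 (SE 0.489) for Serpina3c, in opposite directions. This quantity is built from the contrasts in which the family was already known, so its counts and values are a description and support nothing. Both missed the adjusted threshold, so 0 of 2 members were called in edgeR and 0 in DESeq2. In edgeR 16.8% of all 14909 genes were called, 9.94% higher and 6.89% lower. The unadjusted p in edgeR's quasi-likelihood test was 0.0268 for Serpina3n and 0.0408 for Serpina3c. The shares of all genes in DESeq2 or at an unadjusted p under 0.05 were not counted, so nothing is read from these. Without cKO replicate 4 of day 3 the Serpina3n value was 2.42. Without control replicate 3 of day 3 the Serpina3c value was -1.30, and without cKO replicate 2 of day 3 it was -1.55.

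The balance between the pair was described by the share of Serpina3c in their counts, a measure whose test at 3 against 4 libraries cannot go below 0.0571. Serpina3c made up 6.02, 5.66 and 6.29% of the counts of both genes in the control libraries at day 0, and 11.9, 16.0, 17.8 and 24.7% in those of day 3. All day 3 values lay above all day 0 values, and the difference of means was 11.6 percentage points (exact two-sided permutation test, p = 0.0571, and 0.114 after Benjamini-Hochberg adjustment over the 2 genotypes), which did not pass. In cKO cultures the share was 7.69, 4.61 and 4.62% at day 0 and 1.01, 2.96, 1.15 and 12.2% at day 3, a difference of -1.31 percentage points (exact two-sided permutation test, p = 0.743). Without replicate 4 of day 3 it was -3.93 percentage points, with a day 3 mean of 1.71%. The 12.2% of cKO replicate 4 rests on 5 Serpina3c counts and 36 Serpina3n counts, with a 95% Wilson interval of 5.32 to 25.5%.

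**Figure D3:**
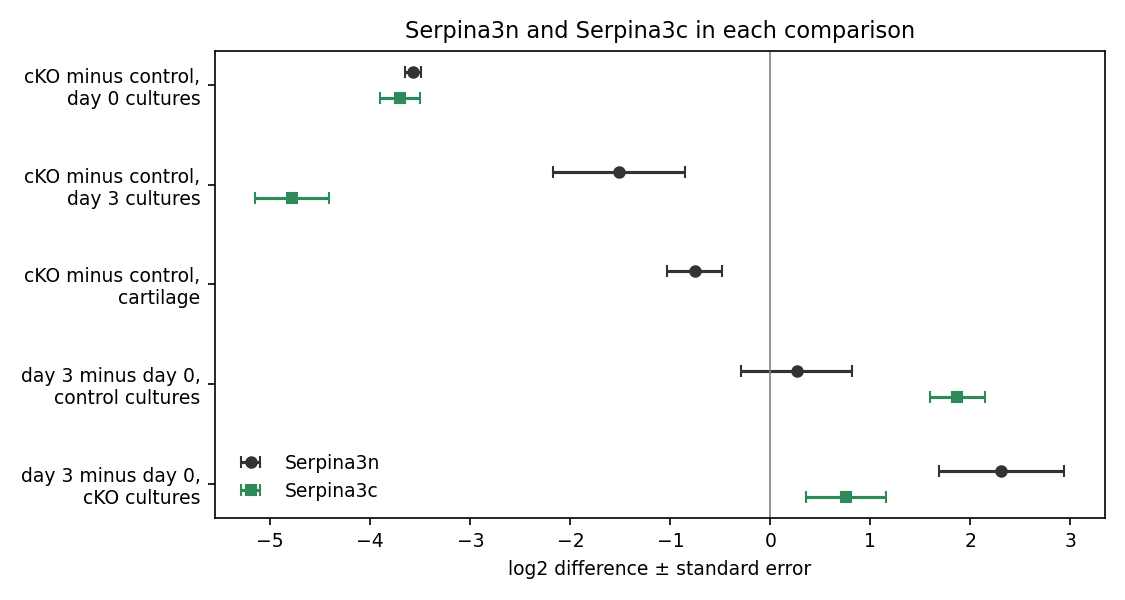
Log2 differences of Serpina3n (circles) and Serpina3c (squares) with standard errors in 5 comparisons, from edgeR. Serpina3c has no cartilage value because its counts did not pass the filter. In day 0 cultures Serpina3n is at -3.57 and Serpina3c at -3.70, and at day 3 Serpina3n is at -1.52 and Serpina3c at -4.78.

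Serpina3g was at 0 in all 6 libraries of day 0, which were sequenced more deeply, and had 15 counts summed over the 4 control libraries and 15 over the 4 cKO libraries of day 3. It did not reach the filter on low counts, and its mean level at day 3 was 0.237 ± 0.124 CPM in control and 0.196 ± 0.121 CPM in cKO (SD, n = 4), close to the floor of that day.

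Markers of chondrocytes summed lower in cKO than in control, in cultures and in tissue. Serpina3n had a negative log2 difference in each setting and was called at day 0 only. The 17 chondrocyte markers summed to 166200 to 175900 CPM in control and 57250 to 70140 CPM in cKO cultures at day 0. At day 3 they summed to 107100 to 133000 CPM in control and 1778 to 19590 CPM in cKO, and in cartilage to 78690 to 115900 and 38920 to 72410 CPM. Of the 17, 16 were called lower in cKO at day 0, 14 at day 3 and 4 in cartilage, and none higher. Among all genes 31.6%, 22.6% and 3.04% were called lower. Over the 3 days in cKO cultures 13 of the 17 were called lower, beside 29.8% of all genes, while Serpina3n had a log2 change of 2.31. In bulk samples fewer cells of a type and less RNA per cell cannot be told apart.

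Set against these markers, Serpina3n did not keep a fixed ratio. Per 1000 CPM of chondrocyte markers it was at 0.299, 0.292 and 0.304 CPM in control and 0.0655, 0.0678 and 0.0742 CPM in cKO cultures at day 0. At day 3 the order was the other way: 0.777, 0.633, 0.299 and 0.302 CPM in control against cKO values of 1.46, 1.73, 1.61 and 1.17 CPM for replicates 1 to 4. The low cKO replicate 4 was still the lowest of its group on this scale, by less than in CPM. Serpina3c in that library was at 0.162 CPM per 1000 CPM of markers, from 5 counts. It was at 0.0149 to 0.0528 CPM in cKO replicates 1 to 3 of day 3. In cartilage the ratio was 0.436, 0.306, 0.301 and 0.458 in control and 0.336, 0.135, 0.413 and 0.578 in cKO, and the groups overlapped. The part of chondrocyte content in the differences of Serpina3n was not tested.

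**Figure D4:**
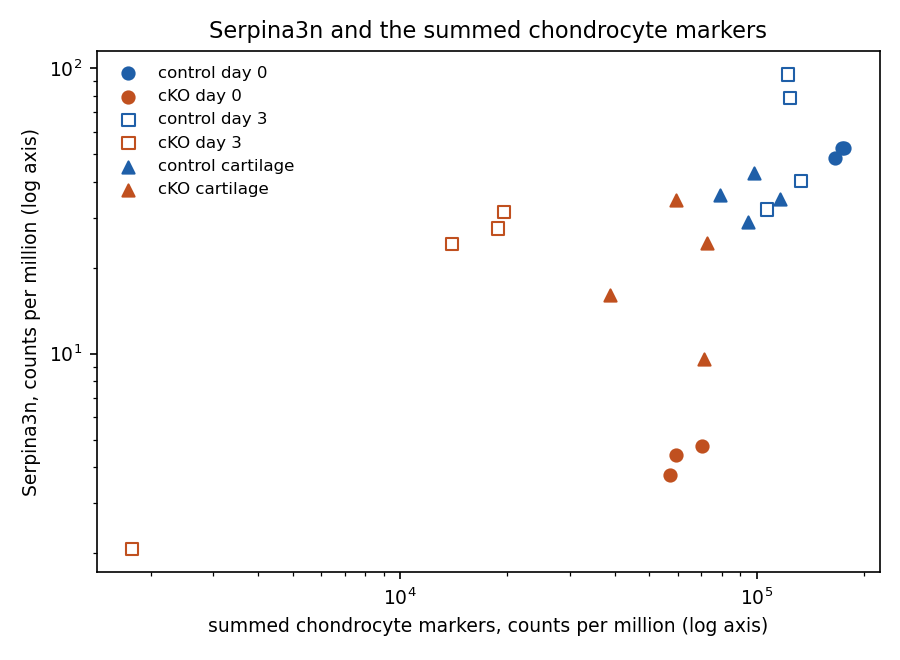
Serpina3n against the summed level of 17 chondrocyte markers in each of 22 libraries, both in CPM on log axes; blue is control and orange is cKO, circles day 0, open squares day 3 and triangles cartilage. Day 0 cKO cultures fall below the control points at 0.0655 to 0.0742 CPM per 1000 CPM of markers, whereas day 3 cKO cultures lie to the left at 1.17 to 1.73.

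Markers of other cell types that can express Serpina3n were also counted. The 8 skeletal muscle markers summed to 6.84 to 7.63 CPM in control and 44.1 to 55.5 CPM in cKO cultures at day 0, and to 1.52 to 2.28 and 142.9 to 1845 CPM at day 3. The 10 macrophage markers summed to 3.39 to 4.48 and 8.94 to 11.1 CPM at day 0 and to 6.17 to 9.56 and 11.2 to 21.0 CPM at day 3, with C1qa, C1qb, C1qc and Tyrobp at 0 in both genotypes at day 3. The 5 hepatocyte markers stayed at or below 0.486 CPM in cultures, with Ttr at 0. The 6 adipocyte markers summed to 7.69 to 9.26 and 18.9 to 21.5 CPM at day 0, with Lep at 0, and their day 3 sums reached 21.6 CPM in control and 68.7 CPM in cKO. The 5 endothelial markers summed to at most 3.84 CPM in cultures. Between the genotypes these muscle, macrophage and adipocyte sums were higher in cKO, the opposite direction to Serpina3n. From day 0 to day 3 in cKO cultures the same sums rose, as Serpina3n did. In cKO replicate 4 of day 3, where Serpina3n was lowest, the muscle sum was 142.9 CPM, against 1085 to 1845 CPM in replicates 1 to 3. The macrophage and adipocyte sums of that library were the highest of its group. The part of these cells in the level of Serpina3n was not tested.

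Other sums were lower in cKO cultures at day 0, the direction of Serpina3n. The 7 osteoclast markers summed to 165 to 170 CPM in control and 76.0 to 90.9 CPM in cKO without overlap. Most of this sum was Ctsk, at 158.6 and 79.0 CPM. Of the 4 osteoclast markers tested, 1 was called lower (Ctsk) and 1 higher (Mmp9, log2 1.15, SE 0.384), with a median of -0.07. The 8 fibroblast and tendon markers summed to 2783 to 4366 CPM in control and 2132 to 2323 CPM in cKO, also without overlap. Col1a1, at 2145 and 1271 CPM, was the largest part. Of these 8, 5 were called lower and 2 higher (Cd34, log2 1.59, SE 0.234, and Scx, 1.15, SE 0.0757), with a median of -0.70. Among all genes 31.6% were called lower and 33.0% higher at day 0. At day 3 the osteoclast sums overlapped (111 to 139 and 96.5 to 358 CPM), and the fibroblast and tendon sums were higher in cKO (6235 to 7882 and 8591 to 9755 CPM). Of the 6 fibroblast and tendon markers tested there, 2 were called higher and 1 lower (Cd34, log2 -2.15, SE 0.494). Their median was -0.11, and 25.5% of all genes were called higher and 22.6% lower. The 5 osteoblast markers overlapped at day 0 (28.5 to 36.4 and 15.6 to 38.6 CPM) and were higher in cKO at day 3 (43.9 to 75.8 and 144 to 380 CPM). The part of these cell types in the level of Serpina3n was not tested.

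In cartilage the osteoclast markers summed to 126 to 457 CPM in control and 58.8 to 119 CPM in cKO, the direction of Serpina3n. The macrophage markers summed to 68.3 to 136 and 43.1 to 109 CPM and overlapped. Of 7 neutrophil markers 5 had a row, all at 0 in the cKO libraries, and the control sums reached 6.18 CPM. The 8 fibroblast and tendon markers summed to 30530 to 60880 CPM in control and 15290 to 37920 CPM in cKO, and the groups overlapped. Their part in the level of Serpina3n was not tested.

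The pathway best known to control Serpina3n, with IL-6 family cytokines, their receptors, STAT3 and acute phase genes, was counted next. Of 28 such genes 23 were tested at day 0, of which 8 were higher and 13 lower in cKO, with a median log2 difference of -0.22 against 0.01 over all genes. Among them the cytokine Lif was higher (log2 1.51, SE 0.119), the receptor Il6ra lower (-1.29, SE 0.0788) and the acute phase gene Saa3 higher (0.99, SE 0.149). Other acute phase genes on the list, Orm1 (-1.64, SE 0.408), Hp (-1.02, SE 0.371), Lcn2 (-0.53, SE 0.137) and Cp (-0.24, SE 0.0656), were called lower. Timp1 was called higher (0.405, SE 0.0568). At day 3, 16 of 22 were higher and 4 lower, with a median of 0.91 against 0.01. Saa3 was at 0.806 CPM in control and 40.4 CPM in cKO (log2 5.63, SE 0.617, edgeR adjusted p 0.000183), and Hp, haptoglobin, at 0.916 and 12.2 CPM (3.73, SE 0.346, edgeR adjusted p 7.88e-05). Lcn2 was also higher (3.355, SE 0.787) and Cp lower (-0.35, SE 0.113) at day 3, where Serpina3n had its log2 difference of -1.52. The shares of all genes called in cKO were 33.0% higher and 31.6% lower at day 0, and 25.5% and 22.6% at day 3. The part of this pathway in the level of Serpina3n was not tested.

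Over the 3 days the same list was counted in each genotype. Among all genes 28.1% rose and 28.8% fell in control cultures, and 32.4% and 29.8% in cKO cultures. In control cultures 3 of 23 rose and 6 fell, among them Lif (log2 -2.40, SE 0.314) and the transcription factor Cebpd (-1.45, SE 0.130). In cKO cultures 15 of 23 rose and 3 fell, with Hp at 5.40 (SE 0.416), Saa3 at 3.37 (SE 0.472) and the receptor Lifr at 2.13 (SE 0.223), beside 2.31 for Serpina3n. In cartilage 1 of 18 was higher (Il6ra, 0.80, SE 0.196) and 3 lower (Lif, Cebpd and Bcl3, with log2 differences of -1.36, -0.58 and -0.52). Each of these 4 calls was lost when some single library was left out, and Serpina3n, at -0.76, was not called beside them. Among all genes in cartilage 3.15% were called higher and 3.04% lower.

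Other regulators known to act on Serpina3 genes were counted in the same way. The shares of all genes called in cKO were 33.0% higher and 31.6% lower at day 0. They were 25.5% and 22.6% at day 3, and 3.15% and 3.04% in cartilage. Of 12 glucocorticoid response genes, 7 were higher and 3 lower in cKO at day 0, 7 and 1 at day 3, and 2 of 10 were higher in cartilage. Dusp1, a phosphatase induced by glucocorticoids and by stress, was at 111 CPM in control and 369 CPM in cKO at day 0 (log2 1.73, SE 0.0581). The 3 lower ones of day 0 were Hsd11b1 (-1.39, SE 0.248), Tsc22d3 (-0.39, SE 0.0804) and Nr3c1 (-0.185, SE 0.0372). Of 20 interferon genes tested at day 0, 15 were higher and 2 lower. At day 3, 18 of 21 were higher, in cartilage 13 of 19, and none was lower in either. Of 14 NF-kB response genes, 9 were higher and 2 lower at day 0, 10 and 1 at day 3, and of 13 tested in cartilage none was called. Serpina3g, the member known for interferon and NF-kB responses, had overlapping counts at day 3. The part of these regulators in the levels of the family was not tested.

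Serpins of other clades were more often called higher than lower in cKO cultures. Of 15 tested, 11 were higher and 2 lower in cKO at day 0, and 11 and 1 at day 3, where the medians were 1.07 and 1.53. Among all genes 33.0% were higher and 31.6% lower at day 0, and 25.5% and 22.6% at day 3. Serpinb1c, related to the neutrophil elastase inhibitor, was at 0.112 CPM in control and 32.6 CPM in cKO at day 0, and at 0 and 75.4 CPM in cartilage. In cartilage 1 of 7 was called, Serpinb1c, beside 6.19% of all genes. Whether the clades differ was not tested.

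Among proteases that serpins can meet, 5 of 8 tested were higher and 2 lower in cKO at day 0, and 6 of 7 were higher at day 3. The shares of all genes were 33.0% higher and 31.6% lower at day 0, 25.5% higher at day 3, and 3.04% lower in cartilage. Plau, urokinase, was at 14.7 and 43.9 CPM at day 0 (log2 1.58, SE 0.125). Plat, the tissue plasminogen activator, was at 8.59 and 45.4 CPM at day 3 (log2 2.40, SE 0.343). In cartilage 2 of 8 were lower, among them Mmp9, a matrix metalloprotease made by osteoclasts, at 156.7 and 6.34 CPM (log2 -4.59, SE 0.682).

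Few genes next to the cluster had enough counts to test. Of 36 genes annotated within 500 kb on either side, 4 were tested at day 0. Of these, 2 were called lower in cKO and 0 higher, beside 31.6% and 33.0% of all genes. Dicer1, the microRNA-processing enzyme, was lower in cKO with a log2 difference of -0.48 (SE 0.0330, edgeR adjusted p 2.29e-06), and Clmn with -0.89 (SE 0.0758, edgeR adjusted p 8.38e-06). Ppp4r4 (-0.06, SE 0.206) and Serpina9 (0.27, SE 0.358), the nearest clade A serpin tested at day 0, did not pass. At day 3, 1 of 3 was lower (Dicer1, -0.30, SE 0.100), beside 22.6% of all genes. In cartilage 0 of 2 were called, beside 6.19%. Over the days Dicer1 was called lower in control (-0.95, SE 0.0842) and cKO (-0.79, SE 0.0843), beside 28.8% and 29.8%. Serpina12, nearer the cluster and sparse, was called higher over the days in cKO (2.71, SE 0.618), beside 32.4%, and not in control.

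The genes whose profile over the 14 culture libraries was most like that of Serpina3n, by Pearson's r of log2(CPM + 1), were Zfp637 (0.958), Wdfy2 (0.952), Mlip (0.944), Elp3 (0.942) and D630003M21Rik (0.942), of 14908 compared. Those most like Serpina3c were Rab28 (0.988), Limd1 (0.986), Tm9sf4 (0.985), Ostn (0.984) and Prkce (0.983). The 14 libraries share genotype, day and count table, so these values describe the profile only. Ostn, which encodes the secreted peptide osteocrin, was at 15.6 ± 0.73 CPM in control and 3.34 ± 0.695 CPM in cKO at day 0 (SD, n = 3), and at 51.2 ± 12.6 and 2.88 ± 0.491 CPM at day 3 (n = 4). D630003M21Rik was at 23.8 ± 0.976 and 9.71 ± 1.03 CPM at day 0 and at 28.1 ± 1.36 and 13.9 ± 7.18 CPM at day 3. Without cKO replicate 4 of day 3, 3 of the 5 genes remained for Serpina3c and 1 of the 5 for Serpina3n.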

How the data were processed

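The 14 culture libraries were made from total RNA with a strand-specific kit, and the 8 cartilage libraries by BRB-seq, a barcoded 3′ method with unique molecular identifiers, per the labels' protocols. For the cultures the authors deposited a table of estimated counts for each day, with values that need not be whole. They were rounded first. For cartilage the authors deposited whole-number counts, used here, and estimated counts, used as an alternative. The design fixed at the outset had named these 2 cartilage tables the other way round; the table used is the one that the membership rule names. The submitters' processing notes name GRCm38 for all samples and, for cartilage, UMI-tools 1.1.1, Trim Galore 0.6.7, HISAT2 2.2.1, featureCounts 2.0.1 and DESeq2 1.34.0, without roles. The aligner and counting tool of the cultures are not given in the sources used here. The pool of every cartilage library came from a barcode list that the authors deposited. Ribosomal RNA genes held 9.96 to 23.6% of the whole-number cartilage counts. Of 34866 culture gene identifiers, 34582 had a symbol, and the other 284 rows stayed in the totals and tests by identifier.

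Differences were tested with edgeR 4.0.16 in R 4.3.3 (quasi-likelihood test, TMM scaling, filterByExpr at 10 counts and 15 in total, Benjamini-Hochberg adjustment over all genes tested, called at an adjusted p under 0.05). Day 0 and day 3 were fitted alone, the changes between days over all 14 culture libraries in 4 groups, and cartilage with sex as a covariate. A standard error is the log2 difference divided by the square root of its F value. The fit was also run on simulated data, where fewer genes changed, and by less than the members at day 0, so nothing is read from it. CPM of genes outside the family are scaled within the comparison they are given for. Alternatives were DESeq2 1.42.0, other scaling, no filter, other sets of samples, a replicate block, the estimated cartilage counts, no sex covariate and each library left out. The members, gene lists and tests were chosen with earlier results of these data known. Genes named from a list are at most the 3 called ones with the largest log2 difference, groups that do not overlap and a mean log2 CPM of 1 or more. The exceptions are the 3 lower IL-6 pathway genes in cartilage, further acute phase genes in cultures, and the genes beside the cluster. Further exceptions are the lower glucocorticoid response genes and the osteoclast marker Mmp9 at day 0. Transcript stretches were aligned with BLAST 2.17.0 and promoters with Biopython 1.88. The test of the Serpina3c share was added after its values were seen. Gene positions came from GENCODE M21. The promoter of Serpina3m is not used here. The values of 1 gene in the list of other serpins are not reported here.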

Additional observations from a re-analysis of the deposited data

How the results depend on the processing

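Across the alternatives the number of family members called for the day 0 genotype difference was 3, except 2 with all 14 culture libraries in 1 fit, where Serpina3m did not pass the filter. It was 0 for the sex difference in cartilage under each. At day 3 it was 1 and became 2 with all 14 culture libraries in 1 fit, where Serpina3n was added; leaving out each library gave 1 to 2. In cartilage it was 0 and became 1 without the filter on low counts; leaving out each library gave 0 to 1, and the ribosomal RNA genes, left out as an alternative chosen after seeing the data, left Serpina3n at -0.75. Without the filter the control change rose from 1 to 2 called members and the cKO change from 1 to 3, because Serpina3g, and in cKO also Serpina3m, entered with at most 7 counts in a library. For the change of the genotype difference between the days, leaving out each library gave 0 to 1, with 1 without control day 3 replicate 3, cKO day 3 replicate 2 or cKO day 3 replicate 4. The genotype contrasts of the cultures, this change and the changes between days are descriptions, from libraries known when the family was chosen. The share of all genes called was counted in the main fits only. Nothing about the family is therefore read from the member counts under the alternatives given here. Leaving out each library, an alternative added after seeing the data, gave a Serpina3c share difference of 9.21 to 13.5 percentage points in control and -3.93 to -0.205 in cKO. The control change of Serpina3n ran from -0.026 (without control day 3 replicate 1) to 0.478 as single libraries were left out, and its sex difference in cartilage from -0.087 (without cKO cartilage replicate 4) to 1.41; neither was called in any fit. Replicate numbers did not pair the libraries: deviations of same-numbered libraries correlated at -0.003, -0.026 and 0.246 at day 0, at -0.151 to -0.078 at day 3 and at -0.078 to 0.262 in cartilage. A replicate block left the number of called members at 3, 1 and 0 in the genotype comparisons and at 1 in each change between days. No alternative removes the link of pool and genotype in cartilage, and the depth there limits every member but Serpina3n.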
